A study of Homo sapiens with 8 samples.

Results

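The comparison described here is the depletion of TET1 by siRNA (siTET1) in NCCIT, a line of human embryonic carcinoma cells that expresses the pluripotency network. It rests on 4 of the 8 arrays of the series: 2 arrays of cells transfected with siRNA against the TET1 transcript (siTET1) and 2 arrays of cells transfected with a non-targeting control siRNA (siNTC). The other arrays, 2 of TET2-depleted cells (siTET2) and 2 of TET3-depleted cells (siTET3), entered the same fit and are used below only to show where siTET1 differed from the other depletions. All cells were the same line in the same medium, and total RNA was hybridised to Affymetrix Human Gene 1.0 ST arrays, which read whole transcripts with several probes per gene. Values are log2 intensities as the authors normalized them, and a difference of 1 is a doubling. Each gene was represented by 1 probe cluster with a single gene symbol, the brightest by its mean over the 8 arrays, which gave 18417 genes. The labels do not say that the duplicates came from separate cultures, so the p-values below cover no more than the spread from array to array, which may be technical. A transient siRNA leaves part of the transcript in place, and the labels name a single siRNA treatment per target, so an effect of TET1 loss, an effect of the siRNA itself and a difference between the siNTC cells and all depleted cells cannot be told apart.

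TET1 is a dioxygenase that oxidises 5-methylcytosine to 5-hydroxymethylcytosine and further products, which base excision repair can replace with unmodified cytosine. It requires iron and 2-oxoglutarate, carries a CXXC domain that binds unmethylated CpG-rich DNA, and is the most studied TET enzyme of pluripotent cells, where it also associates with the SIN3A corepressor and the glycosyltransferase OGT. Genes known to depend on promoter methylation, such as germ line genes and imprinted genes, are therefore of interest here, together with the lineage genes and signalling pathways that pluripotent cells hold in balance.

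TET1 itself measured 9.91 and 9.87 on the siTET1 arrays, against 10.62 and 10.53 on the siNTC arrays. Both siTET1 arrays were below both siNTC arrays, a difference of -0.68 ± 0.048 (SE, adjusted p = 2.9e-07 by limma with Benjamini-Hochberg adjustment over all genes). The siTET1 arrays were also the lowest of the series for this gene, since siTET2 arrays read 10.28 and 10.27 and siTET3 arrays 10.93 and 11.05. TET2 differed by -0.19 (adjusted p = 0.16) and TET3 by -0.34 (adjusted p = 0.101) between siTET1 and siNTC, which did not pass the test.

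Against siNTC, 6320 of 18417 genes passed the test at an adjusted p under 0.05 (34.3%), of which 2871 were higher (15.6%) and 3449 lower (18.7%) on the siTET1 arrays. Most of these differences were small. At least 1.5-fold differences were found in 944 genes (5.13% of all), of which 760 differed by 1.5- to 2-fold, 167 by 2- to 4-fold and 17 by at least 4-fold. The median over all genes was -0.031, so counts of higher and lower genes in a list are read against 15.6% and 18.7% below. These shares depended on level. Of the brightest 6139 genes 28.8% were higher and 32.1% lower, and of the dimmest 6139 genes 1.65% and 7.8%. Lists made up mostly of bright genes are therefore closer to the shares of bright genes than the shares over all genes show. Under quantile normalization the split changed to 3289 higher and 3157 lower. Since the same 2 siNTC arrays stand on one side of every comparison with siNTC, and since they stood apart from all depletions (correlation over genes 0.991 to 0.9913 with the siTET1 arrays, against 0.9954 to 0.9977 between siTET1 and the other depletions), the values of siTET2 and siTET3 are given beside the siTET1 values where they help to place them. Markers of pluripotent embryonic carcinoma cells were all above background (11 of 11 measured, mean 11.18 on siTET1 and 11.19 on siNTC arrays). POU5F1 and NANOG had no single-symbol cluster and were not measured here. Markers of blood cells were below background in 8 of 8 cases, while 3 of 8 fibroblast, 1 of 7 endothelial, 1 of 7 hepatic endoderm and 7 of 8 neuronal markers were above it. Background was set at 5.21, the 95th percentile of 360 olfactory receptor genes. Where a gene lay at or below it on an array of the lower group, only a lower bound of the fold difference ("at least") is given.

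DPPA3 and SHISA3 were among ranks 11 to 30 in their direction by the size of the siNTC difference. DPPA3, a maternal factor of oocytes and primordial germ cells that is also active in naive pluripotency, read 12.98 and 12.92 on the siTET1 arrays, against 11.27 and 11.22 on the siNTC arrays. The groups lay far apart, at 1.71 ± 0.032 (SE, adjusted p = 3.8e-12). DPPA3 was nearly as high with siTET2 (12.82 and 12.83) and siTET3 (12.84 on both arrays), and siTET1 exceeded them by 0.12 (adjusted p = 0.0212). SHISA3, which attenuates WNT and FGF signalling, went the other way, at 7.83 and 7.81 on siTET1 arrays, against 9.85 and 9.93 on siNTC arrays (-2.07 ± 0.086, adjusted p = 3.56e-09). It was lower still with siTET2 (7.29 and 7.28) and siTET3 (6.82 and 6.53), so that siTET1 stood 0.84 above the mean of these depletions (adjusted p = 3.17e-05).

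The promoters of DPPA3 and SHISA3 are shown because they differ in the density of CG dinucleotides, the substrate of DNA methylation. Both run from 250 bases before to 50 bases after the annotated start (RefSeq, GRCh38.p14), 5′ to 3′ on the gene's strand, with every CG in capitals. The DPPA3 window (chr12:7711183-7711482, plus strand) holds 6 CG dinucleotides, most of them close to the start. The SHISA3 window (chr4:42397238-42397537, plus strand) holds 26. A CG was present in 96% of all 35116 such windows.
DPPA3: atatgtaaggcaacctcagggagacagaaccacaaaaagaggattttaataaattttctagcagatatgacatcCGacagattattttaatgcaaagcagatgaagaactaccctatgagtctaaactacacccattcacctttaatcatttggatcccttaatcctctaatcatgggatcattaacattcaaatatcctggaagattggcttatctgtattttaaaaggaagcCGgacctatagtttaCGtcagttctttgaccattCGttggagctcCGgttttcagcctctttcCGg
SHISA3: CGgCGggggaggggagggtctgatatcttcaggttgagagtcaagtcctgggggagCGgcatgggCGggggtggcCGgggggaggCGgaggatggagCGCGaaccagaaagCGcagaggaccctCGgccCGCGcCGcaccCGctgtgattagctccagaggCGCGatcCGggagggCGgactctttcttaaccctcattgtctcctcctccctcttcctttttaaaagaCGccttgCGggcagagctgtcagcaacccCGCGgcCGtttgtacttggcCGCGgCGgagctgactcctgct

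Other higher genes of ranks 11 to 30 had mixed roles. VTRNA1-1, a vault RNA, read 10.89 and 11.03 on siTET1 arrays, against 9.34 and 9.02 on siNTC arrays (1.78 ± 0.085, adjusted p = 1.22e-08), and the siTET2 (12.04 and 11.97) and siTET3 arrays (11.51 and 11.36) were higher again. MMP16, a membrane-bound matrix metalloproteinase, was 1.71 higher, OPN3, a light-sensing opsin with expression outside the eye, 1.69 higher, and PROCR, the endothelial protein C receptor, 1.32 higher. WWC3, a scaffold of the Hippo pathway, was 1.41 higher and GSTM3, a glutathione transferase, 1.32 higher. VIPR2, a receptor for vasoactive intestinal peptide, was at least 2.64-fold higher, because it was below background on 1 of the 2 siNTC arrays.

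The lower genes of the same ranks included several transcription factors. NFIA, a nuclear factor I protein active in glial and other differentiation, read 6.60 and 6.80 on siTET1 arrays, against 8.68 and 8.57 on siNTC arrays (-1.92 ± 0.092, adjusted p = 1.23e-08). Its paralog NFIB was not above background on the siTET1 arrays and was at least 2.25-fold lower (adjusted p = 2.19e-07). The ETS factors ETS1 (6.19 and 6.08 on siTET1, against 7.62 and 7.64 on siNTC, a difference of -1.50) and FLI1 (at least 2.78-fold lower), which lie near each other on chromosome 11 and act in endothelial and blood development, were both lower. ETS1 differed by -1.28 relative to its neighbours on that chromosome. GRPR, the gastrin-releasing peptide receptor, read 5.83 and 5.97 on siTET1 arrays, against 7.85 and 7.90 on siNTC arrays (-1.97), and ANXA3, a calcium-dependent phospholipid-binding annexin, differed by -1.80. TIMM8B, a chaperone of mitochondrial protein import, fell by 1.86 on the log2 scale at a high level, 9.47 and 9.51 on siTET1 arrays, against 11.20 and 11.50 on siNTC arrays. RAB25, a small GTPase of epithelial recycling endosomes, differed by -1.52 and PDZD4, a PDZ domain protein, by -1.48.

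**Figure D1:**
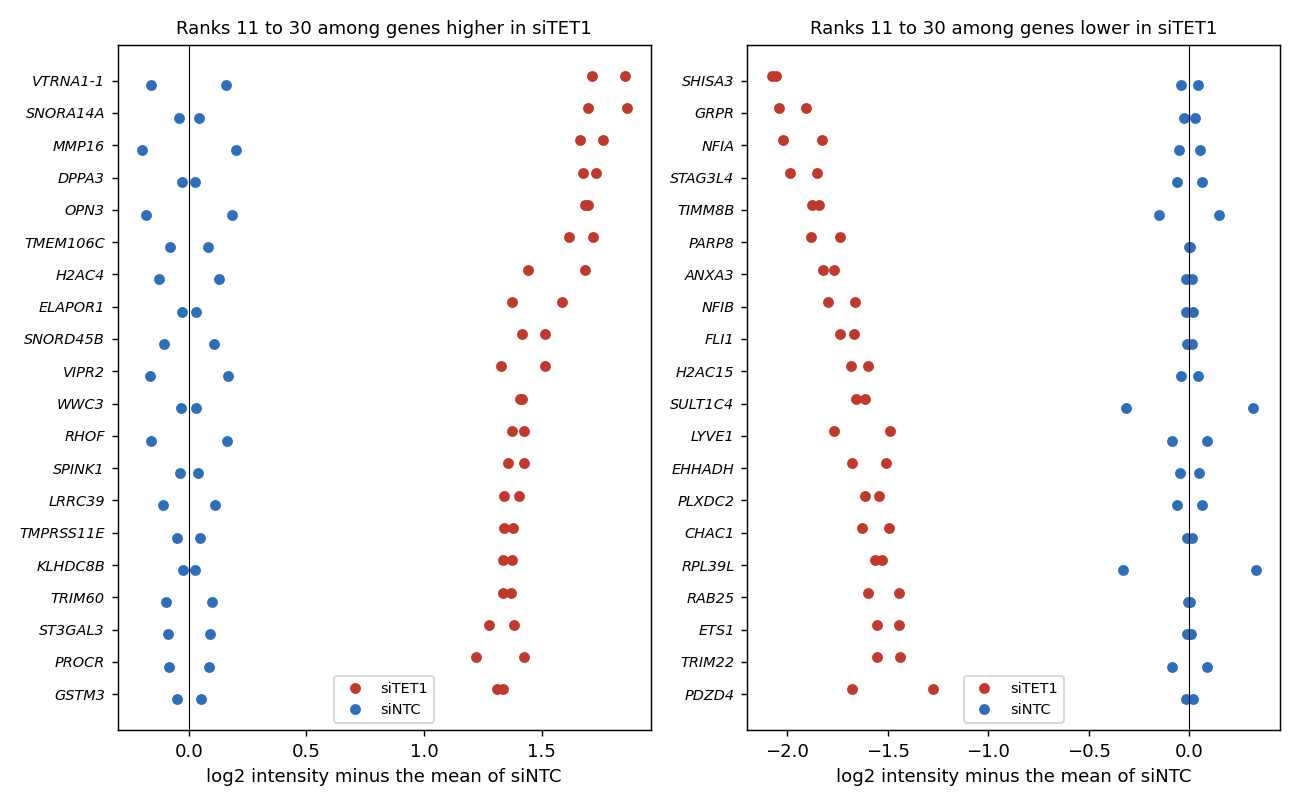
Genes ranked 11 to 30 by size of the siTET1 against siNTC difference, higher genes in the left panel and lower genes in the right: the horizontal axis is the log2 intensity minus the mean of siNTC, and each point is 1 array of siTET1 or siNTC. The siTET1 arrays of DPPA3 lie about 1.71 above and those of SHISA3 about 2.07 below the siNTC mean. Only genes without overlap between siTET1 and siNTC arrays entered these ranks.

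Of 27 genes measured for the TET enzymes and the repair of oxidised methylcytosine, 5 were higher and 5 lower, with a median of -0.005, near that of all genes. LIG3, a ligase of base excision repair, was 0.38 higher (adjusted p = 0.000219) and SMUG1, a uracil glycosylase, 0.34 higher (adjusted p = 0.00859), while CXXC5, a CXXC protein related to the domain that TET2 lacks, was lower by 0.31 (-0.31, adjusted p = 0.003). TDG, the glycosylase that excises formylcytosine and carboxylcytosine, differed by 0.00 (adjusted p = 0.98). Among 28 methyltransferases and methyl-CpG readers, 7 were higher and 4 lower, with DPPA3, which can displace UHRF1 from chromatin, among those higher. DNMT3L, the catalytically inactive partner of the de novo methyltransferases, read 6.93 and 6.97 on siTET1 arrays, against 6.25 and 6.37 on siNTC arrays (0.64 ± 0.092, adjusted p = 0.000118), and DMAP1, a DNMT1-associated protein, was 0.56 higher (adjusted p = 3.48e-05). DNMT3L was close to this with siTET2 (7.01 and 6.90) and siTET3 (6.84 and 7.01). MBD3, the methyl-CpG-binding domain subunit of NuRD, was lower (-0.28, adjusted p = 0.00936).

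The protein complexes that TET1 associates with held more lower than higher members. Of 28 measured subunits and partners of SIN3, NuRD and OGT, 5 were higher, 13 lower and 10 did not pass, with a median of -0.108, against -0.031 over all genes. SIN3A, the scaffold of its corepressor, read 9.87 and 9.92 on siTET1 arrays, against 10.50 and 10.58 on siNTC arrays (-0.64 ± 0.044, adjusted p = 2.29e-07). Since chromosome 15, where SIN3A lies, was lower as a whole (median -0.261), its difference relative to 12 neighbouring genes on each side is given too, -0.37 (adjusted p = 2.8e-05). SAP130, a SIN3 subunit, read 10.54 and 10.65 on siTET1 arrays, against 11.20 and 11.19 on siNTC arrays (-0.60), and HCFC1, a cofactor that OGT cleaves and modifies, was lower by 0.43 (-0.43, adjusted p = 1.92e-06). ARID4B (0.47), SAP30L (0.39) and MTA3 (0.36) were higher, and HDAC1 (0.03, adjusted p = 0.608) did not pass. SIN3A and SAP130 had nearly the same levels with siTET2 (9.87 and 9.90 for SIN3A) and siTET3 (9.88 and 9.86).

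Polycomb and trithorax subunits were split, 12 higher and 11 lower of 44. PCGF3, which defines a variant PRC1 complex, was 0.56 higher (adjusted p = 0.000141), and the methyltransferase gene KMT2C was 0.46 higher (adjusted p = 1.15e-06). PHF19, a PRC2 accessory subunit, was lower by 0.55 (-0.55, adjusted p = 0.000309), PCGF2 by 0.43 (-0.43), and KMT2A by 0.33 (-0.33, adjusted p = 4.35e-05). SUZ12, a core PRC2 subunit, was lower than with siTET2 and siTET3 (-0.30, adjusted p = 0.000404). JmjC demethylases, which share the cofactors of TET1, had 6 higher and 5 lower of 25, led by JMJD4 at 7.90 and 7.84 on siTET1 arrays, against 7.04 and 7.14 on siNTC arrays (0.78, adjusted p = 3.33e-06).

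**Figure D2:**
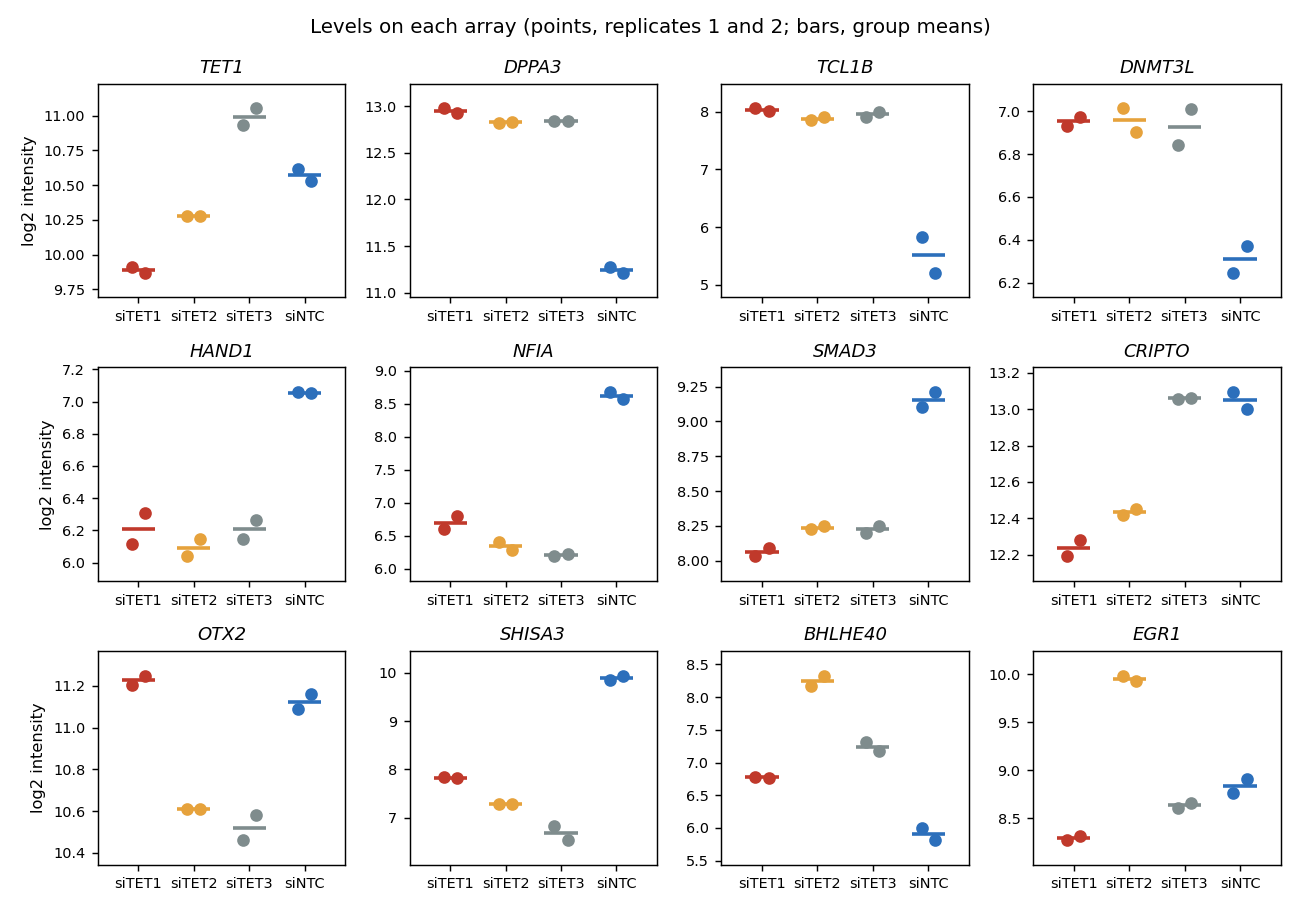
Log2 intensity of 12 genes on each of the 8 arrays, grouped along the horizontal axis as siTET1, siTET2, siTET3 and siNTC; each point is 1 array and the short line is the mean of the group's 2 arrays. TET1 is lowest on the siTET1 arrays (9.91 and 9.87), while DPPA3 and SMAD3 separate siNTC from all depletions and OTX2 separates siTET1 from siTET2 and siTET3.

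Genes of the pluripotency network passed the test in both directions. Of 41 measured members, 7 were higher, 11 lower and 23 did not pass (median -0.022), and LIN28B, an RNA-binding protein that blocks let-7, differed by 0.00 (adjusted p = 0.964). CRIPTO, the NODAL co-receptor, was the member with the largest decrease, at 12.19 and 12.28 on siTET1 arrays, against 13.094 and 13.003 on siNTC arrays (-0.81 ± 0.038, adjusted p = 1.04e-08). PODXL, a sialomucin of the pluripotent cell surface, read 11.59 and 11.62 on siTET1 arrays, against 12.36 and 12.32 on siNTC arrays (-0.73), and THY1, a surface antigen, was lower by 0.52 (-0.52). NR5A2, a nuclear receptor that can bind the POU5F1 promoter, read 11.64 and 11.58 on siTET1 arrays, against 11.12 and 11.14 on siNTC arrays (0.48, adjusted p = 8.37e-07). L1TD1, an RNA-binding protein of pluripotent cells, was 0.44 higher and TFCP2L1, a factor of naive pluripotency, lower by 0.47 (-0.47).

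Lineage transcription factors that passed the test were nearly all lower, at shares near or below the 18.7% of all genes. In the trophectoderm list none of 32 was higher and 6 were lower, in the mesendoderm list none of 41 was higher and 4 were lower, and in the neuroectoderm list 1 of 54 was higher and 10 were lower. Above background were 16, 24 and 30 of these genes. The dimmest 6139 of all genes ran the same way, with 101 higher and 479 lower. Only 4 of 27 HOX genes were above background, and 1 was lower. HAND1, a factor of trophoblast and heart mesoderm, read 6.12 and 6.31 on siTET1 arrays, against 7.06 and 7.05 on siNTC arrays (-0.84 ± 0.098, adjusted p = 2.02e-05), and was similarly low with siTET2 (6.04 and 6.15) and siTET3 (6.15 and 6.27). TEAD4, which initiates the trophectoderm in mouse embryos, was lower by 0.58 (-0.58, adjusted p = 4.14e-05) and GATA3 by 0.37 (-0.37). LHX2, a forebrain and eye field factor, read 5.38 and 5.55 on siTET1 arrays, against 6.70 and 6.89 on siNTC arrays (-1.33, adjusted p = 7.05e-07), and OLIG3, a factor of the dorsal spinal cord, differed by -0.95. ZIC2, a neural plate factor, was lower by 0.51 (-0.51, adjusted p = 0.000159). CDX4 was at least 1.53-fold lower and TBX5 at least 1.63-fold lower, since neither was above background on the siTET1 arrays. CDX2 (-0.10), DLX2 (-0.18) and MIXL1 (0.01) did not pass.

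Germ line and imprinted genes, which DNA methylation can silence, passed the test in both directions. Only 22 of 54 germ cell and meiosis genes were above background, and 10 were higher and 6 lower, or 10 and 3 under quantile normalization. TCL1B, a coactivator of AKT expressed in early embryos and chosen for this list with its change known, was the most changed member (8.06 and 8.02 on siTET1, against 5.83 and 5.21 on siNTC, a difference of 2.52, with the lower siNTC array barely above background). ZP3, a glycoprotein of the egg coat, was at least 2.01-fold higher and PIWIL1, an Argonaute protein of piRNA silencing, at least 1.72-fold higher, as each was below background on 1 of the 2 siNTC arrays. Of 39 cancer-testis antigens of the X chromosome none was higher and 2 were lower. Among 47 imprinted genes 7 were higher and 13 lower (median -0.059). SGCE, a paternally expressed sarcoglycan, read 9.62 and 9.67 on siTET1 arrays, against 9.06 and 9.10 on siNTC arrays (0.57, adjusted p = 2.07e-06), and its neighbour PEG10, a retrotransposon-derived gene, differed in the other direction (-0.39). CMKLR2, a chemerin receptor, read 5.57 on both siTET1 arrays, against 7.28 and 6.59 on siNTC arrays (-1.36), with the siNTC arrays far from each other.

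**Figure D3:**
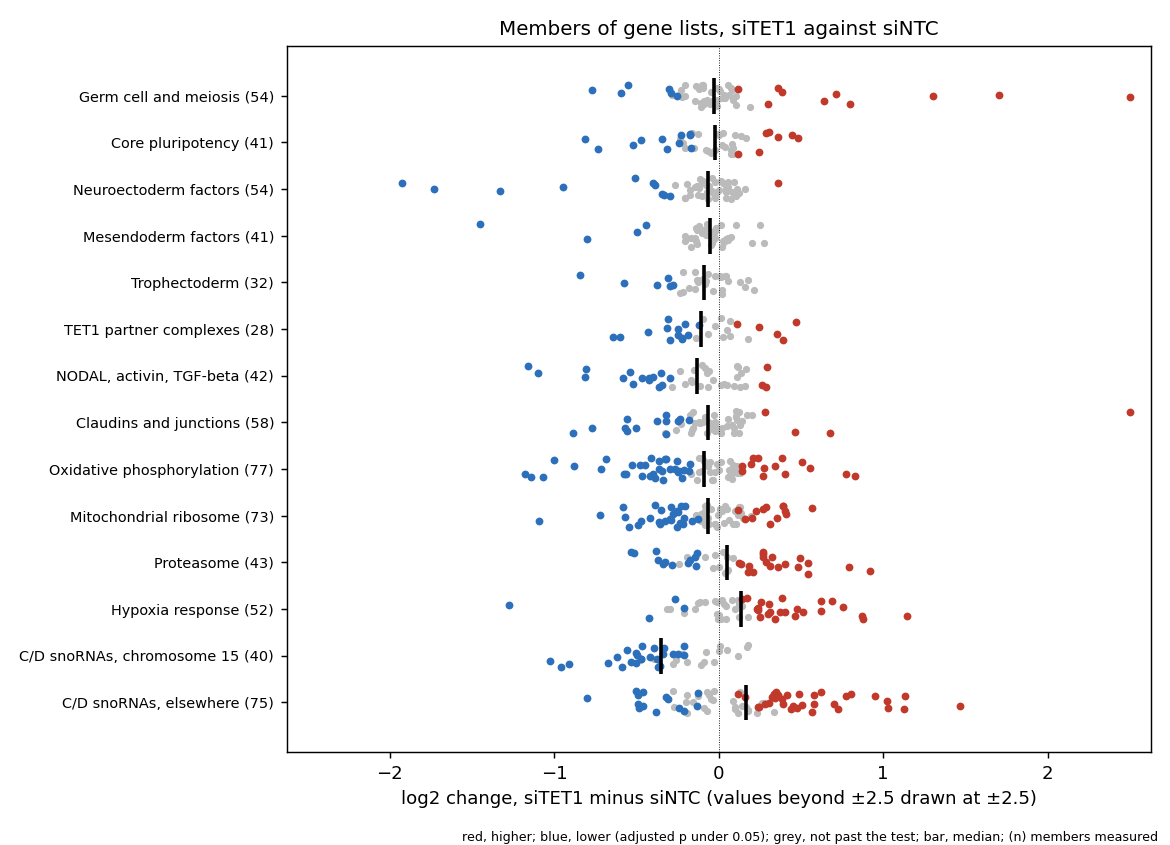
Log2 difference of siTET1 against siNTC (horizontal axis) for every measured member of 14 gene lists, 1 row per list with its number of members; each point is a gene, red (higher) or blue (lower) where it passed the test and grey where it did not, and the vertical mark is the list's median. Values beyond 2.5 in either direction are drawn at 2.5; the medians run between -0.348 for C/D box snoRNAs of chromosome 15 and 0.166 for those elsewhere.

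Components of the NODAL, activin and TGF-beta pathway, which maintains primed pluripotency through SMAD2 and SMAD3, were mainly lower where they passed: 3 of 42 were higher and 15 lower, with a median of -0.130, against -0.031 over all genes. The 3 higher members were TGFBR1, GDF3 and SKIL. The other depletions were similar against the same siNTC arrays, with 5 higher and 13 lower with siTET2 (median -0.102) and 4 higher and 14 lower with siTET3 (median -0.109). Over all 18417 genes, 2661 were higher and 4014 lower with siTET2 (median -0.039), and 2533 and 4113 with siTET3 (median -0.017). The 39 members outside chromosome 15 gave 3 higher and 13 lower with siTET1, with a median of -0.113. SMAD3, the signal transducer, read 8.03 and 8.09 on siTET1 arrays, against 9.10 and 9.21 on siNTC arrays (-1.10 ± 0.061, adjusted p = 4.39e-08), and it remained lower relative to its chromosome 15 neighbours (-0.92, adjusted p = 2.21e-07). DRAP1, a corepressor that in mouse limits NODAL signalling by binding FOXH1, read 8.99 and 9.09 on siTET1 arrays, against 10.13 and 10.27 on siNTC arrays (-1.16, adjusted p = 2.91e-08). With the co-receptor CRIPTO (above), the receptor gene TGFBR2 was lower by 0.58 (-0.58), the target CCN2 by 0.80 (-0.80, adjusted p = 6.95e-07) and the ligand TGFB1 by 0.42 (-0.42, adjusted p = 0.0135). PCSK6, a convertase of NODAL precursors, was lower by 0.54 (-0.54) but not relative to its chromosome 15 neighbours (-0.19, adjusted p = 0.061). BAMBI, a decoy receptor, differed by 0.03 and did not pass.

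In the BMP pathway 6 of 47 were higher and 9 lower (median -0.007). The receptors ACVR1 (7.38 and 7.49 on siTET1, against 8.29 and 8.44 on siNTC, a difference of -0.92) and BMPR2 (-0.66) and the antagonist GREM1 (-0.68) were lower, while the target ID1 was higher, at 11.12 and 11.15 on siTET1 arrays, against 10.58 and 10.62 on siNTC arrays (0.54, adjusted p = 5.35e-06). WNT pathway genes had 9 higher and 15 lower of 76. TCF7L1, the repressive TCF factor of pluripotent cells, read 9.53 and 9.59 on siTET1 arrays, against 10.30 and 10.31 on siNTC arrays (-0.75, adjusted p = 9.99e-08). The receptors moved in both directions, FZD3 by 0.73 and FZD5 and FZD8 by -0.60 and -0.51, and the secreted antagonist FRZB was lower by 0.87 (-0.87).

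FGF ligands, receptors and ERK feedback genes had 10 higher and 15 lower of 54 (median -0.079). FGF2, a ligand on which human pluripotent cells depend, read 8.78 and 8.85 on siTET1 arrays, against 9.76 and 9.66 on siNTC arrays (-0.90, adjusted p = 5.79e-08). DUSP6, the ERK phosphatase, was lower by 2.31 (-2.31) and SPRY4, another ERK feedback inhibitor, read 10.36 and 10.39 on siTET1 arrays, against 10.84 and 10.92 on siNTC arrays (-0.50). SPRY4 was lower than with siTET2 and siTET3 as well (-0.36, adjusted p = 0.000208). CCND1, the cyclin D gene that ERK induces, was higher, at 9.01 and 9.14 on siTET1 arrays, against 8.21 and 8.11 on siNTC arrays (0.91).

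Retinoic acid handling held 4 higher and 6 lower of 24. LRAT, which stores retinol as esters, read 8.29 and 8.41 on siTET1 arrays, against 9.56 and 9.47 on siNTC arrays (-1.17 ± 0.062, adjusted p = 3.13e-08), with siTET2 (8.73 and 8.81) and siTET3 (8.96 and 9.05) between them. The retinol transporter STRA6 read 7.20 and 7.19 on siTET1 arrays, against 8.23 and 8.31 on siNTC arrays (-1.08), and CYP26A1, which degrades retinoic acid, was lower by 0.72 (-0.72, adjusted p = 0.00015). STRA6 lies on chromosome 15 and differed by -0.88 relative to its neighbours. CRABP2, which carries retinoic acid to its nuclear receptor, was 0.81 higher (adjusted p = 0.000175). In Notch and Hedgehog signalling 9 of 51 were higher and 10 lower, among them DISP1 (0.55) and GLI3 (0.52), which act in Hedgehog release and transcription, and the Notch inhibitor NUMB (-0.46).

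Mitochondrial genes were lower more often than higher, in all 3 depletions. Against the same siNTC arrays, oxidative phosphorylation genes had 12 higher and 38 lower with siTET2 and 11 and 35 with siTET3. Mitochondrial ribosomal proteins had 10 and 37 with siTET2 and 12 and 34 with siTET3. Over all 18417 genes lower ones also prevailed, with 2661 higher and 4014 lower with siTET2 and 2533 and 4113 with siTET3. The values below are for siTET1. Of 77 subunits of the oxidative phosphorylation complexes 14 were higher and 32 lower (median -0.088). Counts by symbol were taken over all measured genes, so they include some genes outside this list. By symbol, 8 of 42 NDUF genes, named for complex I, were higher and 16 lower (median -0.075). Of 23 COX genes 5 were higher and 5 lower (median 0.034), and of 19 ATP5 genes 2 were higher and 9 lower (median -0.131). COX6B1, a cytochrome c oxidase subunit, read 10.49 and 10.60 on siTET1 arrays, against 11.73 and 11.72 on siNTC arrays (-1.18 ± 0.048, adjusted p = 2.8e-09). NDUFB3 (-1.14) and NDUFA2 (-1.0) of complex I and COX8A (-1.07) were lower by about as much, whereas COX6C was higher, at 9.21 and 9.22 on siTET1 arrays, against 8.39 on both siNTC arrays (0.83, adjusted p = 3e-07). SDHD, the membrane anchor of succinate dehydrogenase, read 11.36 and 11.31 on siTET1 arrays, against 12.21 on both siNTC arrays (-0.88, adjusted p = 2.09e-09), and -0.57 relative to its neighbours on chromosome 11. Mitochondrial ribosomal proteins had 13 higher and 27 lower of 73 (median -0.067), among them MRPL2 (-0.72), MRPS33 (-0.58) and MRPL28 (0.57).

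Enzymes that set the supply of 2-oxoglutarate, the cosubstrate of TET enzymes, were divided. In the citric acid cycle list 11 of 42 were higher and 15 lower (median -0.007): IDH3A (-0.50) and IDH3B (-0.59), subunits of the NAD-dependent isocitrate dehydrogenase, and PSAT1 (-0.60), which forms 2-oxoglutarate during serine synthesis, were lower (IDH3A, on chromosome 15, by -0.31 relative to its neighbours), while DLD (0.54), the shared dihydrolipoamide dehydrogenase, and MDH1 (0.37) were higher. Genes of iron and ascorbate supply had 7 higher and 4 lower of 37. Among other metabolic lists, fatty acid metabolism had 14 higher and 11 lower of 50, with the triglyceride synthase DGAT2 at 0.92 and the carrier FABP3 at -0.91. Cholesterol genes had 7 higher and 11 lower of 31: HMGCS1, an early enzyme of the synthesis, read 11.56 on both siTET1 arrays, against 12.14 and 12.11 on siNTC arrays (-0.56), and the lipid carrier APOE differed by -0.89. Amino acid transporters had 5 higher and 14 lower of 41. SLC38A5, a glutamine and serine carrier, read 5.48 and 5.50 on siTET1 arrays, against 6.71 and 6.87 on siNTC arrays (-1.30), and the glutamate carrier SLC1A3 was 0.83 higher. Genes of the amino acid stress and unfolded protein responses had 8 higher and 19 lower of 52, including XBP1, at 9.69 on both siTET1 arrays, against 10.17 and 10.27 on siNTC arrays (-0.53, adjusted p = 1.93e-06).

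Cell cycle genes passed the test in both directions, with 21 higher and 27 lower of 76 in G1/S and replication (27 and 24 under quantile normalization) and 24 higher and 26 lower of 74 in mitosis (26 and 25 under quantile normalization). The cyclins D moved in opposite directions: CCND1 was higher (above), and CCND2 read 9.66 and 9.71 on siTET1 arrays, against 10.67 and 10.50 on siNTC arrays (-0.90, adjusted p = 7.72e-08). CDKN1B, an inhibitor of cyclin-dependent kinases, read 8.34 and 8.38 on siTET1 arrays, against 8.94 and 9.06 on siNTC arrays (-0.64). E2F5 (0.69), SGO1 (0.50), a protector of centromeric cohesion, and SPC25 (-0.96), a kinetochore subunit, were further members that passed.

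Death and repair genes moved both ways. Of 51 apoptosis genes 8 were higher and 14 lower (median -0.004). The higher members included BAX, CYCS and AIFM1, and the lower ones BCL2L1, BIRC2 and BIRC6 beside those named next. CASP8, the initiator caspase of death receptors, read 6.47 and 6.67 on siTET1 arrays, against 7.82 and 7.67 on siNTC arrays (-1.17, adjusted p = 1.14e-06), and -0.84 relative to its chromosome 2 neighbours. CASP10, its paralog beside it, was at least 1.36-fold lower but did not pass relative to these neighbours (adjusted p = 0.0944), CASP6 was lower by 0.70 (-0.70), and BID, which links death receptors to mitochondria, read 7.92 and 7.94 on siTET1 arrays, against 8.60 and 8.82 on siNTC arrays (-0.78). The death receptors TNFRSF10A (-0.52) and TNFRSF10B (0.46) moved apart. Targets of p53 had 10 higher and 5 lower of 36 (median 0.074), with ZMAT3 at 0.60. DNA repair had 18 higher and 21 lower of 67, among them BARD1 (-0.86), the partner of BRCA1, and RNF168 (0.58), a histone ubiquitin ligase of double-strand breaks.

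Interferon and antigen presentation genes passed the test in both directions. Of 59 interferon response and RNA sensing genes 4 were higher and 14 lower (median -0.107). IFITM1, an antiviral membrane protein, read 12.93 and 12.96 on siTET1 arrays, against 11.78 and 11.80 on siNTC arrays (1.16 ± 0.028, adjusted p = 4.71e-11), and SAMHD1, a dNTP hydrolase, read 11.14 and 11.19 on siTET1 arrays, against 10.15 and 10.12 on siNTC arrays (1.03 ± 0.04, adjusted p = 2.05e-09). IFITM3, from the same cluster as IFITM1, moved the other way, at 9.27 and 9.37 on siTET1 arrays, against 10.10 and 10.00 on siNTC arrays (-0.73). CGAS, the cytosolic DNA sensor, differed by -0.66 and IFNGR2, an interferon gamma receptor chain, by -0.68. Antigen presentation had 4 higher and 8 lower of 28, with PSME2, an activator of the proteasome, 0.92 higher and HLA-DMA lower by 0.86 (-0.86). B2M, the light chain of MHC class I, differed by -0.74 and by -0.56 relative to its chromosome 15 neighbours. Proteasome subunits had 19 higher and 12 lower of 43 (median 0.054). PSMB6, a catalytic subunit, read 12.49 on both siTET1 arrays, against 11.71 and 11.69 on siNTC arrays (0.79 ± 0.03, adjusted p = 2.05e-09), and PSMC2, an ATPase of the cap, was lower by 0.52 (-0.52). BAG2, a cochaperone of HSP70, read 8.32 and 8.37 on siTET1 arrays, against 9.82 and 9.81 on siNTC arrays (-1.47).

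Of 58 claudins and epithelial junction genes 4 were higher and 13 lower (median -0.063), or 7 and 13 under quantile normalization (median -0.035), a lower share near that of all genes. EPCAM, an adhesion molecule of undifferentiated epithelial cells, read 9.14 and 8.99 on siTET1 arrays, against 9.81 and 9.86 on siNTC arrays (-0.77, adjusted p = 4.25e-07), and its binding partner CLDN7 read 5.84 and 5.89 on siTET1 arrays, against 6.65 and 6.86 on siNTC arrays (-0.89). CLDN1 was 0.68 higher, while CDH1, the epithelial cadherin, differed by 0.02 (adjusted p = 0.903). Cadherins and protocadherins had 7 higher and 16 lower of 67. Among all 18 measured genes with a PCDHB symbol, a clustered family with some members outside this list, none was higher and 9 were lower (median -0.287). The largest decrease was that of PCDHB3, at 7.36 and 7.50 on siTET1 arrays, against 8.70 and 8.71 on siNTC arrays (-1.27). PCDHB genes are close copies of each other, so their probes may share signal. Matrix genes had 10 higher and 10 lower of 79. ITGA5, the fibronectin receptor chain, was 0.99 higher and LAMA1, a basement membrane laminin, read 8.66 and 8.62 on siTET1 arrays, against 7.84 and 7.75 on siNTC arrays (0.85), while LAMA2 differed by -0.98 and COL18A1 by -0.83.

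Genes of neuronal growth and secretion had 10 higher and 15 lower of 58 (median 0.002). STMN2, a tubulin-binding protein of growing axons, read 11.65 and 11.63 on siTET1 arrays, against 10.42 and 10.46 on siNTC arrays (1.20 ± 0.035, adjusted p = 2.02e-10), and GAP43, another growth cone protein, was lower (-1.15). Axon guidance genes had 9 higher and 14 lower of 70, with EFNA3 at 0.94, its receptor family member EPHA3 at -0.84, and SLIT1 at 0.70. EDNRB, the endothelin receptor of neural crest cells, read 6.91 and 6.90 on siTET1 arrays, against 8.37 and 8.17 on siNTC arrays (-1.37). Contractile genes had 4 higher and 12 lower of 49, among them the tropomyosins TPM1 (-0.76) and TPM2 (-0.85) and the transcription factor gene SRF (-0.74, adjusted p = 1.15e-07), listed with the immediate early genes, whose product drives contractile genes in many tissues.

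Small non-coding RNAs were split by type and by chromosome. C/D box snoRNAs, many of which guide ribose methylation of ribosomal RNA, had 33 higher and 39 lower of 115. The 40 on chromosome 15, nearly all from the imprinted SNORD115 and SNORD116 arrays, had none higher and 25 lower (median -0.348), and the 75 elsewhere had 33 higher and 14 lower (median 0.166). Chromosome 15 was lower as a whole, with 23 higher and 243 lower of 412 genes above background (median -0.261). Above background were 23 of its 40 C/D box snoRNAs, with 3 of 20 in SNORD115, and 66 of the 75 elsewhere. In SNORD116, 18 of 20 copies were lower (median -0.499, between -1.022 and 0.119). SNORD116-23 read 10.92 and 10.96 on siTET1 arrays, against 12.04 and 11.88 on siNTC arrays (-1.02), or -0.62 relative to its neighbours. Copies of these arrays are near-identical in part, so values of single copies are uncertain. SNORD104 read 10.89 and 10.87 on siTET1 arrays, against 9.80 and 9.71 on siNTC arrays (1.13). H/ACA snoRNAs and Cajal body RNAs, which guide pseudouridylation, had 25 higher and 15 lower of 77 (median 0.144), and SNORA14A read 7.96 and 8.13 on siTET1 arrays, against 6.22 and 6.31 on siNTC arrays (1.78). RPPH1, the RNA of RNase P, differed by -0.83 and TERC, the telomerase RNA, by -0.81.

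Of 179 microRNA genes 12 were higher and 23 lower (median -0.056), and only 55 were above background. Both shares were below the 15.6% and 18.7% of all genes. The probes read the precursor region, not the mature microRNA. Mature strands of the higher genes MIR302A, MIR302B, MIR15A and MIR15B are shown because they fall into 2 seed groups, with the seed (bases 2 to 8) in capitals (RefSeq, GRCh38.p14). The miR-302 genes of chromosome 4, abundant in pluripotent cells, and the miR-15 genes, which repress cell cycle and survival genes, each share a seed within the pair. MIR302A and MIR302B were the 2 measured genes with the first seed, and of 5 measured genes with the second, MIR16-1 (-0.04), MIR16-2 (-0.10) and MIR195 (below background on all siTET1 and siNTC arrays) did not pass.
hsa-miR-302a-3p: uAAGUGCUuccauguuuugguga
hsa-miR-302b-3p: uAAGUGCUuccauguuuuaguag
hsa-miR-15a-5p: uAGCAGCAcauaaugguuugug
hsa-miR-15b-5p: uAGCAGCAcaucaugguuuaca
MIR302A read 10.40 and 10.77 on siTET1 arrays, against 10.40 and 10.11 on siNTC arrays, so that 1 array of each group met (0.33, adjusted p = 0.0495). It read 10.15 and 9.95 with siTET2 and 9.76 and 10.00 with siTET3, and was higher with siTET1 than with these depletions (0.62, adjusted p = 0.00266). MIR302B read 11.22 and 11.32 on siTET1 arrays, against 11.11 and 10.90 on siNTC arrays, without overlap (adjusted p = 0.00362), and was 0.46 above siTET2 and siTET3 (adjusted p = 0.000185). MIR15A, on chromosome 13, read 6.61 and 7.02 on siTET1 arrays, against 5.93 and 5.80 on siNTC arrays (0.95, adjusted p = 5.95e-05), and MIR15B, below background on 1 of the 2 siNTC arrays, was at least 1.38-fold higher (adjusted p = 0.0367). MIR221, a microRNA of proliferating cells, was lower by 0.67 (-0.67, adjusted p = 0.000222).

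A second comparison set siTET1 against the mean of siTET2 and siTET3, which leaves the siNTC arrays out of the difference. Here 1807 genes passed (9.81%), 1340 higher (7.28%) and 467 lower (2.54%) with siTET1, and 38 genes (0.206%) differed at least 1.5-fold. The excess of higher genes depended on scaling: quantile normalization gave 824 higher and 765 lower, and subtraction of the shift of neighbouring genes 815 and 773. The count also rested on single arrays: 477 and 438 genes passed without siTET1 replicate 1 and replicate 2, and 869 and 944 without siTET2 replicate 1 and replicate 2. It was 1189 against siTET2 alone and 2534 against siTET3 alone, comparisons added after the data were seen.

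Hypoxia response genes separated the depletions. Of 52 such genes outside glycolysis 24 were higher and 4 lower with siTET1 than with siNTC (median 0.135), yet none was higher and 25 were lower with siTET1 than with siTET2 and siTET3 (median -0.168, against 0.009 over all genes). The median difference was -0.281 against siTET2 and -0.091 against siTET3. BHLHE40, a repressor of the clock and of lipid synthesis genes, read 6.78 and 6.77 on siTET1 arrays, 8.17 and 8.32 on siTET2 arrays, 7.31 and 7.17 on siTET3 arrays, and 5.99 and 5.81 on siNTC arrays. It was thus above every siNTC array and below every other depletion array (0.87, adjusted p = 9.33e-06 against siNTC and -0.97, adjusted p = 2.49e-05 against siTET2 and siTET3). Its paralog BHLHE41 had the same order, at 6.68 and 6.64 on siTET1 arrays, 7.75 on both siTET2 arrays, 7.20 and 7.12 on siTET3 arrays, and 5.98 and 6.09 on siNTC arrays. VEGFA, the angiogenic ligand, read 7.44 and 7.52 on siTET1 arrays, 8.37 and 8.34 on siTET2 arrays, 7.67 and 7.71 on siTET3 arrays, and 7.25 and 7.35 on siNTC arrays. It did not pass against siNTC (0.18, adjusted p = 0.0643) and differed by -0.54 from the other depletions. LOX, a collagen cross-linking oxidase, differed by -0.97 from siTET2 and siTET3, STC1 and STC2, secreted glycoproteins of calcium and phosphate balance, by -0.73 and -0.71, and PFKFB3, the activator of glycolytic flux, by -0.77. The H3K9 demethylase gene KDM3A, also a hypoxia target, was 0.24 above siNTC and differed by -0.49 from siTET2 and siTET3.

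Immediate early genes, which growth factors and stress induce within minutes, had 4 higher and 9 lower of 34 with siTET1 against siNTC, and none higher and 10 lower against siTET2 and siTET3 (median -0.139). FOS read 6.98 and 6.94 on siTET1 arrays, 8.74 and 8.60 on siTET2 arrays, 7.24 and 7.31 on siTET3 arrays, and 6.87 and 6.91 on siNTC arrays. The siTET1 and siNTC arrays were close (0.07, adjusted p = 0.561), and siTET2 stood far above (siTET1 minus siTET2 -1.71, adjusted p = 9.75e-08; siTET1 minus siTET3 -0.32, adjusted p = 0.0151). EGR1 read 8.27 and 8.32 on siTET1 arrays, 9.98 and 9.92 on siTET2 arrays, 8.61 and 8.66 on siTET3 arrays, and 8.76 and 8.91 on siNTC arrays, so that siTET1 was the lowest group (-0.54, adjusted p = 1.28e-05 against siNTC). JUN and FOSL2, partners in AP-1, differed by -0.58 and -0.61 from siTET2 and siTET3. The median difference of the list was -0.190 against siTET2 and -0.091 against siTET3, so the siTET2 arrays set more of its size.

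The promoters of 3 of these genes are shown because they hold the motifs of factors known to drive the lists (RefSeq, GRCh38.p14, 5′ to 3′). Capitals mark the hypoxia response core ACGTG on either strand, where CACGTG counts as 2 overlapping matches, in BHLHE40 (chr3:4979187-4979486, plus strand, 4 matches) and BHLHE41 (chr12:26124988-26125287, minus strand, 2 matches), and CArG boxes, the site of SRF, in EGR1 (chr5:138465229-138465528, plus strand, 2 matches).
BHLHE40: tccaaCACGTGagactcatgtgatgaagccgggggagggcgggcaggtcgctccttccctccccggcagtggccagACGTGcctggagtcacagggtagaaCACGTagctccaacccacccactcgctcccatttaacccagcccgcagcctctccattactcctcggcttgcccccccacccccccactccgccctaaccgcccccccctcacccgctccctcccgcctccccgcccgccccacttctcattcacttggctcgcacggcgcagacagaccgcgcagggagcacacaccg
BHLHE41: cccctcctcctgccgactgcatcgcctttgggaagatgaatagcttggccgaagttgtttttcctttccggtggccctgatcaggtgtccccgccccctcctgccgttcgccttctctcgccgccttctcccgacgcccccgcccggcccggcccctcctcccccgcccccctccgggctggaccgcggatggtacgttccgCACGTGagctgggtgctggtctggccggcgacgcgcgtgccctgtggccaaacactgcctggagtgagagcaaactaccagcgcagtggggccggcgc
EGR1: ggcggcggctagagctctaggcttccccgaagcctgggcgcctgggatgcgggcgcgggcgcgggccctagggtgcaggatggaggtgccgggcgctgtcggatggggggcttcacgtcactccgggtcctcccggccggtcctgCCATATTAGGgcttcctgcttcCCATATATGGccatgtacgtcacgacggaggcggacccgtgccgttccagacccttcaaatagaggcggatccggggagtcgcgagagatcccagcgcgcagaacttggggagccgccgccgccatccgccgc
Among genes with a single annotated window, ACGTG was found in 14 of 29 hypoxia genes (48.3%) and in 24.2% of all 10501 measured genes, and a CArG box in 1 of 20 immediate early genes (5.0%), EGR1, and in 1.13% of all. Over all 35116 windows, several for some genes, the shares were 21.4% and 1.29%. A match is a run of letters and not a measured binding site.

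**Figure D4:**
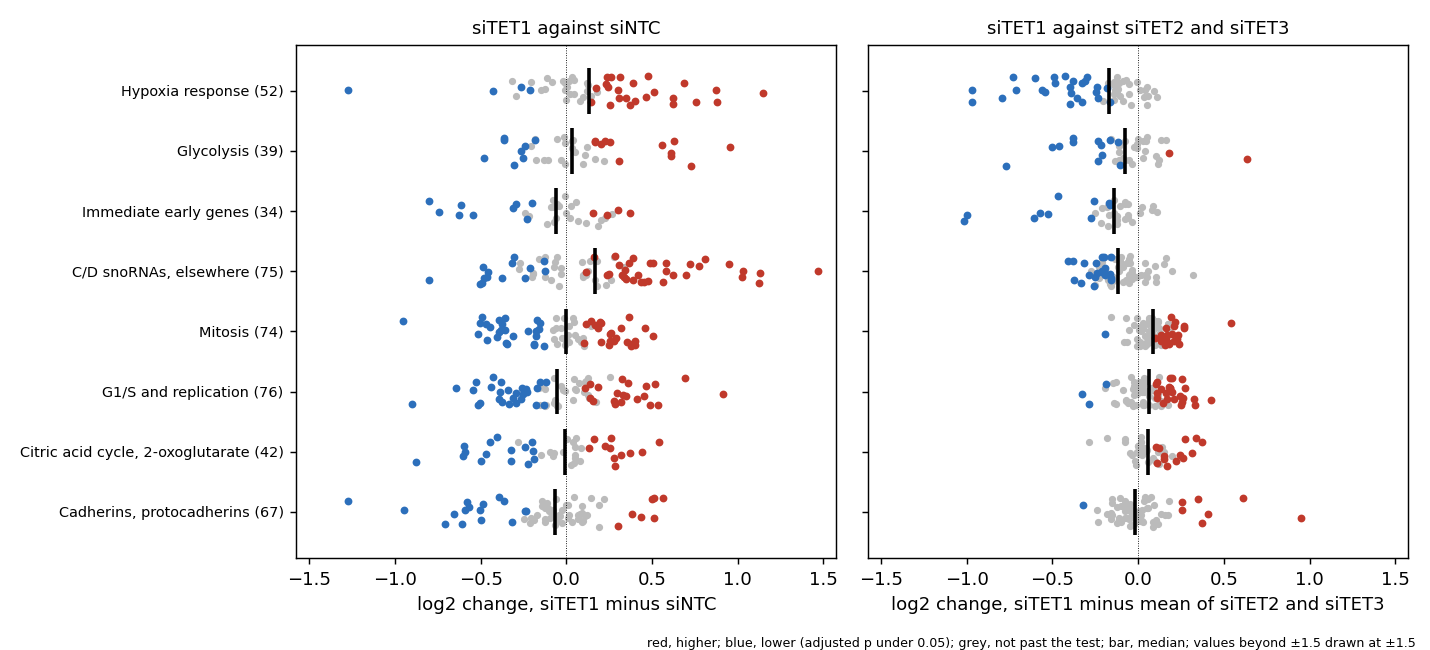
Log2 difference of each measured member of 8 gene lists, with siTET1 against siNTC and siTET1 against the mean of siTET2 and siTET3 in separate panels; each point is a gene, red (higher) or blue (lower) where it passed the test and grey where it did not, and the mark is the median. Hypoxia genes have a median of 0.135 against siNTC and -0.168 against the other depletions; values beyond 1.5 are drawn at 1.5.

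The genes higher with siTET1 than with the other depletions belonged to other classes. OTX2, a homeobox factor of primed pluripotency and forebrain, read 11.20 and 11.25 on siTET1 arrays, 10.61 on both siTET2 arrays, 10.46 and 10.58 on siTET3 arrays, and 11.09 and 11.16 on siNTC arrays. It did not pass against siNTC (0.10, adjusted p = 0.108) and exceeded the other depletions by 0.66 ± 0.039 (adjusted p = 1.98e-06). GPC3, a heparan sulfate proteoglycan of embryonal tumours, had the same pattern, at 11.33 and 11.35 on siTET1 arrays, 10.84 and 10.77 on siTET2 arrays and 10.84 and 10.94 on siTET3 arrays (0.49, adjusted p = 2.08e-05, and 0.11, adjusted p = 0.0859 against siNTC). CDH9, a neuronal cadherin, read 7.29 and 7.38 on siTET1 arrays, 6.53 and 6.24 on siTET2 arrays, 6.41 and 6.36 on siTET3 arrays, and 6.81 and 6.84 on siNTC arrays, above all other groups (0.95, adjusted p = 4.16e-05). FASN, the fatty acid synthase, was 0.41 above siTET2 and siTET3 and ELOVL6, which elongates its product, 0.47. CRIPTO was lower than with these depletions (-0.51, adjusted p = 3.62e-06), mostly through siTET3: it read 12.42 and 12.45 with siTET2 and 13.05 and 13.06 with siTET3.

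In proliferation and metabolism the siTET1 excess over the other depletions was broad and small. Mitosis genes had 21 higher and 1 lower of 74 (median 0.086), G1/S and replication genes 24 higher and 3 lower of 76 (median 0.065), and citric acid cycle genes 13 higher and none lower of 42 (median 0.055). Quantile normalization left 13 and 1 in mitosis, 14 and 4 in G1/S and 8 and 1 in the citric acid cycle. CCNB2, a mitotic cyclin, exceeded siTET2 and siTET3 by 0.54 (adjusted p = 3.62e-06), mostly through siTET3 (9.94 and 9.87) and less through siTET2 (10.57 and 10.60). Oxidative phosphorylation genes, with 8 higher and 2 lower of 77, gave 3 and 5 under quantile normalization and so had no stable direction. C/D box snoRNAs outside chromosome 15 went down, with none higher and 21 lower of 75 (median -0.115).

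Differences from siNTC followed chromosomes in part. The median was -0.261 over 412 genes above background on chromosome 15 (23 higher and 243 lower), -0.109 over 806 on chromosome 2 (135 and 318), -0.074 over 749 on chromosome 11 (118 and 255) and 0.102 over 590 on chromosome 7 (213 and 96). Against siTET2 and siTET3 the medians of all chromosomes lay between 0.007 and 0.058, with chromosome 15 at 0.043. The shifts thus separated the siNTC arrays from all 3 depletions. Copy number was not measured on these arrays, and neither its part in these shifts nor a difference between the stocks of cells was tested.

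Promoter composition differed between the groups of genes called against siNTC, most clearly among dim genes. Since 12746 of 18417 genes were above background, most of the dimmest 6139 lay below it. In 10501 genes with a promoter window, the median number of CG dinucleotides was 28 among 1677 genes higher with siTET1, 25 among 1963 lower, and 20 among 6861 that did not pass. The medians also followed expression level. Among genes with the lowest mean level, the low group of 3 equal groups by level, 57 higher genes had a median of 12, 256 lower genes 4 and 3156 others 7, whereas in the high group the medians were 28, 26 and 28. Among dim genes, those higher thus held more CG at the median than those lower, and among bright genes the medians were close. Total GC content differed in the same way. Its medians were 59.3% among higher, 47.5% among lower and 55.7% among other genes in the low group, and 65.7%, 65% and 65.3% in the high group. The share of genes with at least 15 CG was 49.1% among higher, 27.3% among lower and 33.7% among other genes in the low group, and 93.1%, 90.1% and 92.4% in the high group. Over all levels it was 88.7%, 78.9% and 60.4%. These are descriptions over genes, which are not independent replicates.

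**Figure D5:**
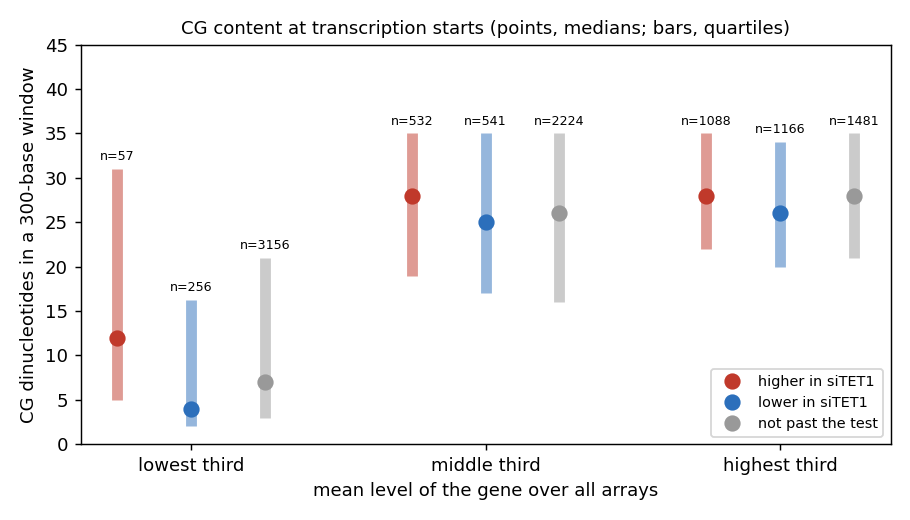
CG dinucleotides per 300-base promoter window (vertical axis) for genes higher, lower or not past the test in siTET1 against siNTC, within 3 equal groups of genes by mean log2 level (lowest, middle and highest); points are medians and bars span the quartiles. In the lowest group the medians are 12, 4 and 7, and in the highest group 28, 26 and 28.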

How the data were processed

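Total RNA of NCCIT cells, 2 arrays for each of siTET1, siTET2, siTET3 and siNTC, was labelled from 250 ng for Affymetrix arrays (Human Gene 1.0 ST). The authors deposited log2 intensities, normalized with Partek, whose version is not given in the sources used here, nor are its settings. The deposited log2 values run between 3.13 and 14.75 in 33297 probe clusters, of which 19460 have 1 gene symbol in GEO's platform annotation, 1754 several and 12083 none. Groups came from the sample labels. Of a gene's single-symbol clusters the brightest by mean over the 8 arrays was kept (18417 genes, 769 with several clusters).

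Genes were tested with limma 3.58.1 in R 4.3.3: 1 mean per group over all 8 arrays, eBayes with an intensity trend, and Benjamini-Hochberg adjustment over all 18417 genes, with a threshold of 0.05 and a secondary one of 1.5-fold. With duplicates the number of arrays limits the precision. Background was the 95th percentile of 360 olfactory receptor genes (5.21), which left 12746 genes above it. "At least" folds set the dim group at the higher of this level and its own value. Genes were named by rule: genes the study assayed, ranks 11 to 30 each way against siNTC, the 15 largest each way against siTET2 and siTET3, and, of each of 63 gene lists, up to 6 and up to 3 members that passed and 2 with the smallest difference. The ranked genes of both comparisons had to pass the test and lie above background in the brighter group. Their siTET1 arrays also had to lie beyond all arrays of the other side, so absence of overlap is no result for them. Members, lists and rules were chosen with earlier results of these data known. Differences relative to neighbours subtract the median of 12 genes on each side. Motifs and CG were counted in RefSeq promoter windows of 300 bases (GRCh38.p14). On simulated data with 200 changed genes the fit recovered 38.5% at 1.25-fold, 81% at 1.5-fold and 98.5% at 2-fold for siTET1 against siNTC, and 46.5%, 91% and 99% for siTET1 against siTET2 and siTET3. Alternatives were quantile normalization, only the arrays compared, a single prior variance for all genes (no intensity trend), the mean of a gene's clusters, leaving out genes below background, a replicate block, subtraction of the neighbour shift, fold thresholds of 1.25 and 2 and leaving out each array.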

Additional observations from a re-analysis of the deposited data

How the results depend on the processing

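The number of genes that passed against siNTC (6320) stayed between 5708 and 6612 under quantile normalization, only the arrays compared, leaving out the intensity trend, leaving out genes below background, averaging clusters, and neighbour shift subtraction, and between 4714 and 6872 when 1 array was left out. The 944 genes past 1.5-fold became 3561 at a threshold 25% above the dimmer group and 184 at 2-fold, and 944 to 1033 when 1 array was left out. Against siTET2 and siTET3, 1807 genes became 609 without the intensity trend, 38 at 1.5-fold and 438 to 2518 when 1 array was left out. Against siTET2 alone, added after the data were seen, 1189 passed. The TET1 difference from siNTC lay between -0.701 and -0.661 over the settings and between -0.727 and -0.640 when 1 array was left out. Of the named genes that passed, CCNB2 alone reversed: its difference from siNTC of -0.15 became 0.20 (adjusted p = 0.00182) relative to its chromosome 15 neighbours. Among counts, quantile normalization turned the balance of higher and lower genes against siNTC for all genes (3289 and 3157) and for several lists. These were ribosomal proteins (18 and 15), G1/S genes (27 and 24), mitosis genes (26 and 25), Notch and Hedgehog genes (10 and 8), one-carbon genes (11 and 10) and ZNF genes (93 and 91). Against siTET2 and siTET3 it turned the balance of several lists. Among them were oxidative phosphorylation (3 and 5), the TET1 partner complexes (1 and 2), methyltransferases and methyl-CpG readers (1 and 3), JmjC demethylases (0 and 3), WNT genes (2 and 3), apoptosis genes (2 and 4) and lysosome genes (4 and 5). Of 63 medians against siNTC, 42 moved by more than the replicate spread under quantile normalization (13 changed sign), 41 under neighbour shift subtraction (11 changed sign, C/D box snoRNAs with 0.124 among them), and 22 to 30 when 1 siTET1 or siNTC array was left out. Of 624 genes named against siNTC by the rule, 518 kept their side of the threshold under every alternative, and 76 of 176 did so against siTET2 and siTET3. Those of them that passed the test also kept their direction, which was not compared for genes that did not pass. The causes of these changes were not tested. With 2 arrays per group, small differences were often missed in simulated data. There only 200 of 18417 genes changed, far fewer than passed against siNTC, so the shares recovered need not hold for these data. Genes near background have only bounds.

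The replicate numbers of the labels did not pair the arrays: deviations of same-numbered siTET1 and siNTC arrays correlated at -0.02 over genes, those of siTET1 and siTET3 at 0.251 and those of siTET1 and siTET2 at -0.044. With the replicate number as a block, 6402 genes passed against siNTC, 944 of them past 1.5-fold, 1796 passed against siTET2 and siTET3, and TET1 differed by -0.684.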

Other observations

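Several gene lists outside the pathways above also held members that passed against siNTC. Aminoacyl-tRNA synthetases, which charge tRNAs, had 4 higher and 13 lower of 37 (median -0.072, or -0.011 relative to neighbouring genes), and genes of ribosome biogenesis 13 higher and 26 lower of 70 (median -0.075). Ribosomal proteins had 15 higher and 19 lower of 63, which became 18 and 15 under quantile normalization, and RPL39L, a testis-enriched paralog of RPL39, was at least 2.85-fold lower with siTET1 than with siNTC (adjusted p = 9.11e-06 by limma). In the circadian clock list 7 of 23 were higher and 3 lower: BMAL1, the clock activator, was 0.55 higher (adjusted p = 0.000363), PER3 0.55 higher (adjusted p = 0.000296), and PER2, another repressor of the clock, lower by 0.39 (-0.39, adjusted p = 0.00286). BHLHE40 and BHLHE41 belong to this list too.

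Replication-dependent histone genes had 9 higher and 23 lower of 55 (median -0.176). Classes were counted by symbol over all measured genes, so they include some genes outside this list. By symbol, 2 of 14 H2A genes were higher and 8 lower, and 3 of 17 H2B genes higher and 8 lower. Of 13 H4 genes 2 were higher and 7 lower, of 8 H3 genes 2 higher and 1 lower, and of 11 H1 genes 1 higher and 2 lower. In the list itself, H1-4 was the only H1 gene that passed, and it was lower. H2BC4 differed by -0.77 and H3C12 by 0.34. H4C14 and H4C15 had identical values on every array, so their signal cannot be told apart. Zinc finger genes with a ZNF symbol had 85 higher and 91 lower of 494, and channels 6 higher and 8 lower of 70. The long non-coding RNA MALAT1 read 12.95 and 12.99 on siTET1 arrays, against 12.47 on both siNTC arrays (0.50, adjusted p = 2.25e-07), and XYLT1, which starts heparan sulfate and chondroitin sulfate chains, was 0.82 higher (adjusted p = 5.01e-06).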
